A study of Mus musculus with 15 samples.

Results

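A group of small X-linked miRNAs, mir-465, mir-470, mir-471, mir-741, mir-743, mir-871, mir-878, mir-880, mir-881 and mir-883, was followed through the left ventricles (LV) of 15 mice. The group was chosen by its values, because several of its miRNAs were higher in AGAT-/- than in wt mice in these same libraries. The comparison of AGAT-/- with wt mice is therefore a description, and no p-value of a member is printed for it. Which members passed a threshold is stated later, but nothing is read from it. The group's members are all rows of the count table whose names begin with those numbers, on the 5p or 3p arm of the precursor. They made up 34 of 1836 rows. Of these, 19 had more than 10 reads over the 15 libraries, 10 had between 1 and 10, and 5 were at 0 in every library (mir-465d-5p, mir-741-5p, mir-880-5p, mir-881-5p and mir-883b-5p). All 34 rows together held 1806 of 6817774 reads, or 0.0265%.

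A miRNA is cut from a hairpin precursor, whose arms can each give a mature strand, and it finds its target mRNAs mainly through its seed, the bases 2 to 8 from the 5′ end. The X-linked miRNAs between Slitrk2 and Fmr1 form a fast-evolving family that is known for high levels in the testis, where several members are made in germ cells or Sertoli cells.

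AGAT, short for L-arginine:glycine amidinotransferase, makes homoarginine and guanidinoacetate, from which creatine is formed. The groups were 5 wt mice, 5 mice with both copies of the AGAT gene deleted in all tissues (AGAT-/-), and 5 such mice that received homoarginine from osmotic mini pumps for 4 weeks (AGAT-/-hArg). All were littermates from heterozygous parents on a C57BL/6J background, and each mouse gave 1 library. Sex and age, and whether the other groups carried pumps, are not given in the sources used here. The gene for AGAT makes no miRNA, so the genotypes could not be checked in these counts. Libraries of wt and AGAT-/- mice were run on lane 8 and those of AGAT-/-hArg mice on lane 2, so lane and homoarginine cannot be told apart in any comparison with AGAT-/-hArg mice.

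The 17 precursors of the members lie within 62.369 kb of the X chromosome, at chrX:66776757-66839125 (GRCm38), all on the minus strand. RefSeq and GENCODE M21 give the same coordinates for each of them. None overlaps another annotated gene, so the mature arms lie in no annotated exon, intron or UTR of a protein-coding gene. The nearest protein-coding genes are Slitrk2, 115.364 kb from one edge, and Gm1140, 843.775 kb from the other. The same stretch holds the processed pseudogene Gm14681, Mir742 and Mir463. Mir742 was not analysed here.

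The mature strands that carried most reads are shown first, since the results rest on them. Sequences are from RefSeq (GRCm38.p6), written 5′ to 3′ with the seed in capitals.
mir-871-3p: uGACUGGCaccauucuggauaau
mir-470-5p: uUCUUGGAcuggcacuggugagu
mir-881-3p: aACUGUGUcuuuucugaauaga
mir-871-5p: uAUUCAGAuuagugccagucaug
mir-743b-3p: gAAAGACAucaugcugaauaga
mir-883a-3p: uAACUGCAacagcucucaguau
mir-878-5p: uAUCUAGUuggaugucaagaca
Their positions are chrX:66810438-66810460 for mir-871-3p, chrX:66813995-66814017 for mir-470-5p and chrX:66801954-66801975 for mir-881-3p. Those of the scarcer strands are chrX:66810472-66810494 for mir-871-5p, chrX:66777266-66777287 for mir-743b-3p, chrX:66780768-66780789 for mir-883a-3p and chrX:66801554-66801575 for mir-878-5p. The mir-871 precursor, the most abundant of the cluster, is printed whole with both arms in capitals, because reads fell on both.
mir-871 precursor: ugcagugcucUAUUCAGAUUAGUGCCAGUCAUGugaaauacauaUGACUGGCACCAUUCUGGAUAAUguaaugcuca

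The members are relatives but mostly do not share seeds. RefSeq gave a mature sequence for all 34 rows, of 21 to 23 bases, and these came to 28 different sequences with 22 seeds. Of the 22 seeds, 21 were found in no other mature miRNA of the RefSeq table, which holds 1679 mature names, and the seed of mir-743b-5p was also that of mir-6948-5p. mir-871-3p and mir-470-5p have different seeds but share the run GACUGGCAC, which starts at base 2 in mir-871-3p and at base 7 in mir-470-5p. mir-743b-3p and mir-881-3p share CUGAAUAGA at their 3′ ends, from base 14 in each. The seed AUUCAGA occurs in mir-743a-5p and mir-871-5p, AAAGACA in mir-743a-3p and mir-743b-3p, and AACUGCA in mir-883a-3p and mir-883b-3p.

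The mir-465 copies are shown because several of their rows are 1 sequence.
mir-465a, mir-465b and mir-465c, 3p arm: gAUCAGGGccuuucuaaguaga
mir-465c-5p: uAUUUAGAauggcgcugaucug
mir-465b-5p: uAUUUAGAauggugcugaucug
mir-465a-5p: uAUUUAGAauggcacugauguga
The 3p strands of mir-465a, mir-465b-1, mir-465b-2, mir-465c-1 and mir-465c-2 are identical, although the table lists them in 5 rows with between 21 and 33 reads each. The 5p strands of mir-465c-1 and mir-465c-2 are also identical (64 and 69 reads), as are those of mir-465b-1 and mir-465b-2 (23 and 28 reads). A read of these strands cannot be assigned to 1 copy by its mature sequence, and how the authors shared such reads between rows is not given in the sources used here. The 12 mir-465 rows were therefore summed as well, and their single rows are uncertain.

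Summed over the 34 rows, the cluster was lowest in wt and higher in both AGAT-deficient groups. Values are CPM (read counts scaled by the TMM-normalized library size) and are levels, not differences, unless a fold change is named. In wt mice 1 to 5 the sum was 149, 152, 50.3, 157 and 78.9 CPM. In AGAT-/- mice 6 to 10 it was 415, 417, 325, 429 and 264 CPM. In AGAT-/-hArg mice 11 to 15 it was 221, 186, 224, 505 and 385 CPM.

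Every AGAT-/- mouse and every AGAT-/-hArg mouse lay above the highest wt mouse, while AGAT-/- and AGAT-/-hArg mice overlapped. The group means were 117 ± 49.4 CPM in wt, 370 ± 72.3 in AGAT-/- and 304 ± 136 in AGAT-/-hArg mice (SD, n = 5 each). The mean log2 CPM differed by 1.74 between AGAT-/- and wt mice, by 1.37 between AGAT-/-hArg and wt mice and by -0.37 between AGAT-/-hArg and AGAT-/- mice. With each mouse left out in turn, these differences ranged from 1.47 to 1.87, from 1.11 to 1.52 and from -0.57 to -0.22. No p-value is given for a sum over members that were chosen by their values.

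**Figure D1:**
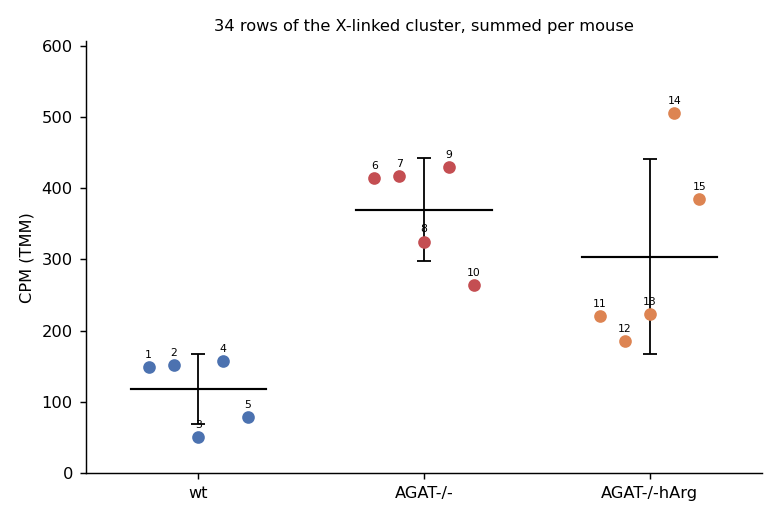
Summed level of the 34 rows in each mouse, in CPM after TMM normalization, by group. Points are mice with their numbers, the long line is the group mean and the bar its SD (n = 5). The highest wt mouse is at 157 CPM and the lowest AGAT-/-hArg mouse at 186 CPM, and mice 14 and 15 stand above the other AGAT-/-hArg mice.

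The depth behind these sums was small. Libraries held 365634 to 570492 reads, and the cluster gave between 24 and 68 reads in a wt mouse, between 114 and 240 in an AGAT-/- mouse and between 95 and 197 in an AGAT-/-hArg mouse. A row with 3 reads in a library stands at 4.93 to 8.20 CPM, so a value at or under that level in a single library cannot be told from 0. Intervals of counting error do not cover library preparation. The tissue was whole LV, where more cells that make a miRNA and more of it per cell cannot be told apart. Rows at 0 are not evidence of absence, since the 3p rows of the heart miRNAs mir-1a, mir-133a and mir-208 were at 0 as well.

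mir-871-3p was the most abundant member, with 744 reads or 41.2% of all reads of the cluster. It stood at 37.2, 75.0, 16.8, 78.6 and 37.0 CPM in wt mice 1 to 5. In AGAT-/- mice 6 to 10 it stood at 188, 168, 120, 167 and 97.3 CPM. In AGAT-/-hArg mice 11 to 15 it stood at 79.1, 70.6, 129, 249 and 134 CPM. All AGAT-/- mice were above all wt mice, whereas AGAT-/-hArg mouse 12 lay within the range of wt mice. Means were 48.9 ± 26.8, 148 ± 37.8 and 132 ± 71.1 CPM (SD, n = 5). The log2 fold change of AGAT-/- against wt mice was 1.61 (SE 0.29).

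The opposite arm of the same hairpin, mir-871-5p, was scarce. It had 1 read each in wt mice 1 and 4 and none in the other wt mice. AGAT-/- mice 6 to 10 had 4, 13, 3, 12 and 5 reads, and AGAT-/-hArg mice 11 to 15 had 8, 2, 2, 4 and 8. Every AGAT-deficient mouse had at least 2 reads and no wt mouse had more than 1. Over the groups, the 37 reads of AGAT-/- mice against 2 reads of wt mice gave a ratio of 17.6 (95% exact conditional interval 4.55 to 151), which covers counting error only.

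The share of the 3p arm in all mir-871 reads was 98.1% in wt mice (103 of 105 reads, 95% Wilson interval 93.3 to 99.5). It was 90.2% in AGAT-/- mice (341 of 378, 86.8 to 92.8) and 92.6% in AGAT-/-hArg mice (300 of 324, 89.2 to 94.97). These intervals pool the reads of 5 mice and cover counting error only. By mouse, the share of the 5p arm was 0 to 5.56% in wt, 4.88 to 13.0% in AGAT-/- and 3.51 to 17.4% in AGAT-/-hArg mice, so the groups overlapped. Since mir-871-5p was among the members named for their values, this is a description as well.

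mir-470-5p, which is known to act on the mRNAs of pluripotency factors in embryonic stem cells, was next in abundance, with 415 reads or 23.0% of the cluster. In wt mice 1 to 5 it stood at 41.6, 32.8, 12.6, 30.4 and 7.40 CPM. In AGAT-/- mice 6 to 10 it stood at 96.4, 83.3, 101, 85.4 and 76.5 CPM. In AGAT-/-hArg mice 11 to 15 it stood at 43.7, 44.3, 44.7, 128 and 89.7 CPM. Mice 11 to 13 lay just above the highest wt mouse, and mice 14 and 15 were in or above the range of AGAT-/- mice. Means were 25.0 ± 14.4, 88.5 ± 10.0 and 70.1 ± 38.0 CPM (SD, n = 5), and the log2 fold change of AGAT-/- against wt mice was 1.80 (SE 0.28). The 3p arm of mir-470 had 1 of 416 reads.

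mir-881-3p had 117 reads, and none fell on its 5p arm. It stood at 8.76, 2.34, 2.09, 15.2 and 2.47 CPM in wt mice 1 to 5, from 4, 1, 1, 6 and 1 reads. The wt values that rest on 1 read cannot be told from 0. In AGAT-/- mice mir-881-3p ranged from 18.5 CPM in mouse 10 to 41.0 in mouse 6. In AGAT-/-hArg mice it ranged from 12.5 in mouse 11 to 25.9 in mouse 15. Again no AGAT-/- mouse reached down to the wt range, while AGAT-/-hArg mouse 11 lay below wt mouse 4. Means were 6.17 ± 5.77, 26.8 ± 9.95 and 18.4 ± 5.09 CPM (SD, n = 5), and the log2 fold change of AGAT-/- against wt mice was 2.08 (SE 0.46).

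The 12 mir-465 rows together held 333 reads, 203 on the 5p and 130 on the 3p arm. Their sum was 41.6, 28.1, 10.5, 20.3 and 29.6 CPM in wt mice 1 to 5. It was 65.1, 85.1, 51.9, 87.5 and 37.1 CPM in AGAT-/- mice 6 to 10 and 47.9, 41.1, 23.5, 79.5 and 69.8 CPM in AGAT-/-hArg mice 11 to 15. In contrast to the 3 miRNAs above, AGAT-/- mouse 10 fell within the range of wt mice. Means were 26.0 ± 11.6, 65.3 ± 21.6 and 52.4 ± 22.5 CPM (SD, n = 5), and the mean log2 CPM differed by 1.31 between AGAT-/- and wt mice. For the 6 5p rows this difference was 0.99, and for the 6 3p rows 1.60.

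**Figure D2:**
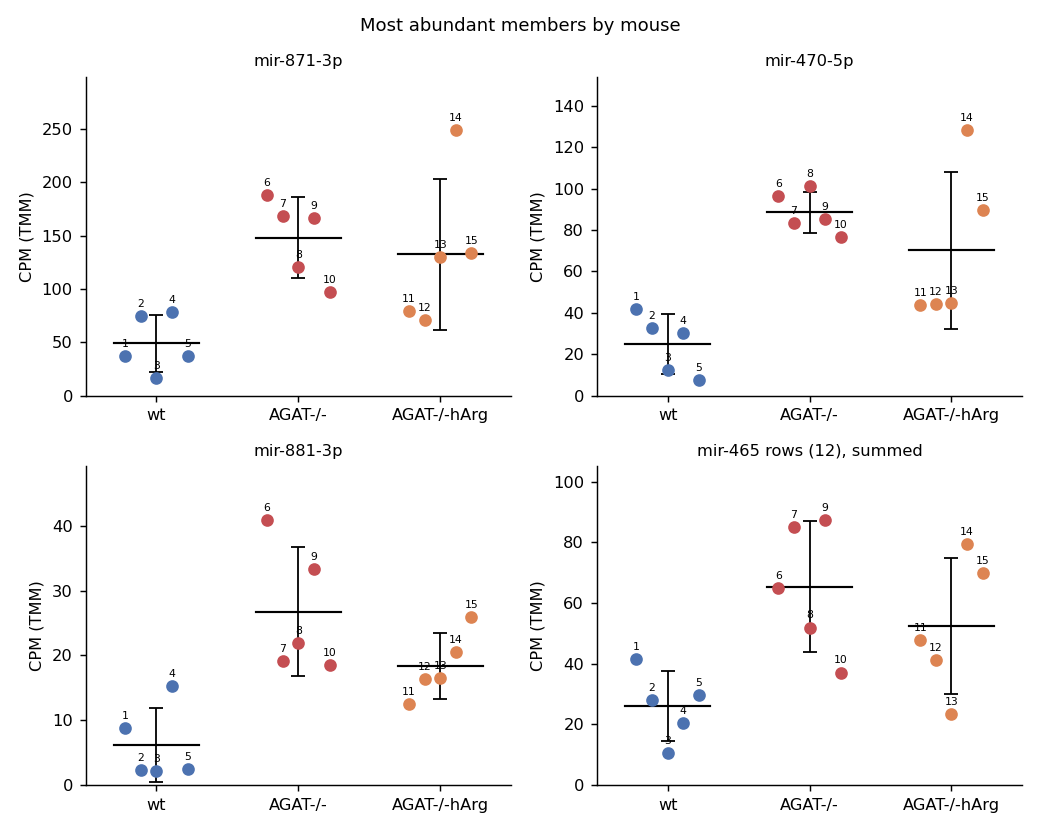
Level of mir-871-3p, mir-470-5p, mir-881-3p and the sum of the 12 mir-465 rows in each mouse, in CPM after TMM normalization, by group. Points are mice with their numbers, the long line is the group mean and the bar its SD (n = 5). AGAT-/- mice do not overlap wt mice in the first 3 panels and overlap in mouse 10 in the mir-465 panel.

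The remaining members were near the limit of detection. mir-743b-3p had 5 reads in wt, 22 in AGAT-/- and 13 in AGAT-/-hArg mice, with 8 of these 13 in mouse 15. It was at 0 to 4.69 CPM in wt and at 4.82 to 13.9 CPM in AGAT-/- mice, and its log2 fold change between them was 1.93 (SE 0.56). mir-883a-3p had no read in any wt mouse, 1, 2, 1, 4 and 3 reads in AGAT-/- mice 6 to 10, and 3 reads in AGAT-/-hArg mice, all in mouse 15. Since a single library had more than 3 reads, no fold is given for mir-883a-3p.

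Other members rested on fewer reads still, so that no order of the groups can be read from them. mir-878-5p had 4, 8 and 7 reads in wt, AGAT-/- and AGAT-/-hArg mice, and its log2 fold change of AGAT-/- against wt mice was 0.82 (SE 0.82). mir-741-3p had 3, 5 and 7 reads and mir-743a-3p 1, 4 and 7 reads in the same order. mir-471, which is known from Sertoli cells, had 10 reads in all, evenly divided between its arms. mir-880-3p had 1, 3 and 3 reads, and mir-883b-3p had 1 read in all. The 15 rows with 10 or fewer reads, summed, differed by 0.18 in mean log2 CPM between AGAT-/- and wt mice.

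The higher level in AGAT-/- mice was therefore carried mostly by few rows, and the sum of the other rows was higher as well. Without mir-871, mir-470-5p and mir-881-3p, the other 30 rows summed to 36.5 ± 15.1 CPM in wt, 91.1 ± 28.2 in AGAT-/- and 73.0 ± 36.3 in AGAT-/-hArg mice (SD, n = 5). The lowest AGAT-/- mouse of this sum stood at 60.2 CPM and the highest wt mouse at 59.1 CPM, so the groups were barely apart. The sum still holds mir-743b-3p, mir-883a-3p and mir-878-5p, which were among the members named for their values. It is a description and gives no separate support. The most abundant members took similar shares of the cluster in the 3 groups. mir-871-3p took 41.0% of the reads of the cluster in wt, 40.1% in AGAT-/- and 42.6% in AGAT-/-hArg mice, mir-470-5p took 21.5%, 23.4% and 23.0%, and the mir-465 rows took 22.3%, 18.0% and 17.6%. Scarcer members differed more, mir-871-5p taking 0.80%, 4.35% and 3.41% and mir-883a-3p 0%, 1.29% and 0.43%.

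To see how many single rows moved, each pair of groups was compared with edgeR's quasi-likelihood test over all miRNAs that had more than 10 reads in the libraries compared, with the false discovery rate (FDR, Benjamini-Hochberg) held to 0.05 or less. Between AGAT-/- and wt mice, 17 members were tested, 17 had a positive log2 fold change (2 mir-465 rows turned negative under alternatives) and 4 passed the FDR, namely both arms of mir-871, mir-470-5p and mir-881-3p. Over all 562 miRNAs tested, 1.6% passed in this direction. In 8 members every AGAT-/- mouse was above every wt mouse, against 2.49% of all miRNAs tested. For mir-743b-3p this rests on 2 reads in AGAT-/- mouse 6 against 2 in wt mouse 2. For the 3p rows of mir-465c-1 and mir-465c-2, which are 1 sequence, it rests on 1 read against 1. For mir-883a-3p it rests on 1 read against 0. Because the members were chosen on this comparison, and 7 of the 17 had 3 wt reads or fewer and passed the filter through the AGAT-/- mice, nothing is read from these counts. The median log2 fold change of the 17 members was 1.72, and 1.67 without mir-883a-3p, which was at 0 in wt mice. The median of all miRNAs tested was -0.04. Without wt mouse 2, mir-881-3p no longer passed (log2 fold change 1.88), and mir-871-5p did not pass with animal number as a covariate (3.40).

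The comparison of AGAT-/-hArg with AGAT-/- mice asks whether 4 weeks of homoarginine moved the cluster. None of the 19 members tested passed the FDR, with adjusted p-values of edgeR between 0.675 and 0.970. None had an unadjusted p under 0.05 either, and DESeq2 called none. Over all 580 miRNAs tested, 0.69% passed in either direction. Of the 19 members, 14 had a negative and 5 a positive log2 fold change, with a median of -0.35 against 0.02 over all miRNAs tested. For mir-871-3p the log2 fold change was -0.20 (SE 0.26), for mir-470-5p -0.35 (SE 0.25), for mir-881-3p -0.52 (SE 0.31) and for mir-871-5p -0.66 (SE 0.45). Each of these 4 values is within 2 SE of 0. The SE was derived from the same test, so this is no further check. The AGAT-/- libraries of this comparison are among those on which the members were chosen.

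The comparison of AGAT-/-hArg with wt mice asks whether the difference was also seen in the other AGAT-deficient group. The wt libraries took part in the choice of the members, and the AGAT-/-hArg libraries are not shown to be free of it. The adjusted p-values below are therefore not an independent test. Of 15 members tested, 14 had a positive log2 fold change and 3 were higher at the FDR, against 1.58% of all 569 miRNAs tested. mir-871-3p was higher by a log2 fold change of 1.42 (SE 0.34, edgeR adjusted p = 0.0232), and mir-470-5p by 1.45 (SE 0.37, edgeR adjusted p = 0.0311). mir-871-5p was higher with an edgeR adjusted p of 0.0276, from 24 reads against 2, a ratio of 10.8 (95% exact conditional interval 2.68 to 94.1). For mir-881-3p the log2 fold change was 1.56 (SE 0.45), which did not pass (edgeR adjusted p = 0.0712). In 2 members, mir-470-5p and mir-871-5p, every AGAT-/-hArg mouse was above every wt mouse, against 1.76% of all miRNAs tested. For mir-871-5p this rests on 2 reads in mice 12 and 13 against 1 read in wt mice 1 and 4. Such counts cannot be told from 0. The median log2 fold change of the 15 members was 1.13, against 0.02 over all miRNAs tested. Since the low wt libraries took part in the choice, these values are not independent of it. Of the 15 members, 5 had 3 wt reads or fewer (mir-871-5p among them) and passed the filter on low counts through the AGAT-/-hArg mice, so the counts and the median are partly set by the filter and support nothing.

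These 3 calls depended on single mice. mir-871-3p did not pass without wt mouse 1 (log2 fold change 1.36), wt mouse 5 (1.33), AGAT-/-hArg mouse 14 (1.09) or AGAT-/-hArg mouse 15 (1.42). mir-470-5p did not pass without wt mouse 3 (1.27), wt mouse 5 (1.21), AGAT-/-hArg mouse 14 (1.15) or AGAT-/-hArg mouse 15 (1.33). For mir-871-5p the same held for wt mice 2, 3 and 5 and AGAT-/-hArg mice 11, 14 and 15, with log2 fold changes of 2.82 to 3.09. mir-881-3p passed without wt mouse 4 (2.15), and also with total counts (1.67) or when 1 read sufficed (1.58). With animal number as a covariate none of the 3 passed, and their log2 fold changes were 0.81 for mir-871-3p, 0.96 for mir-470-5p and 2.83 for mir-871-5p.

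**Figure D3:**
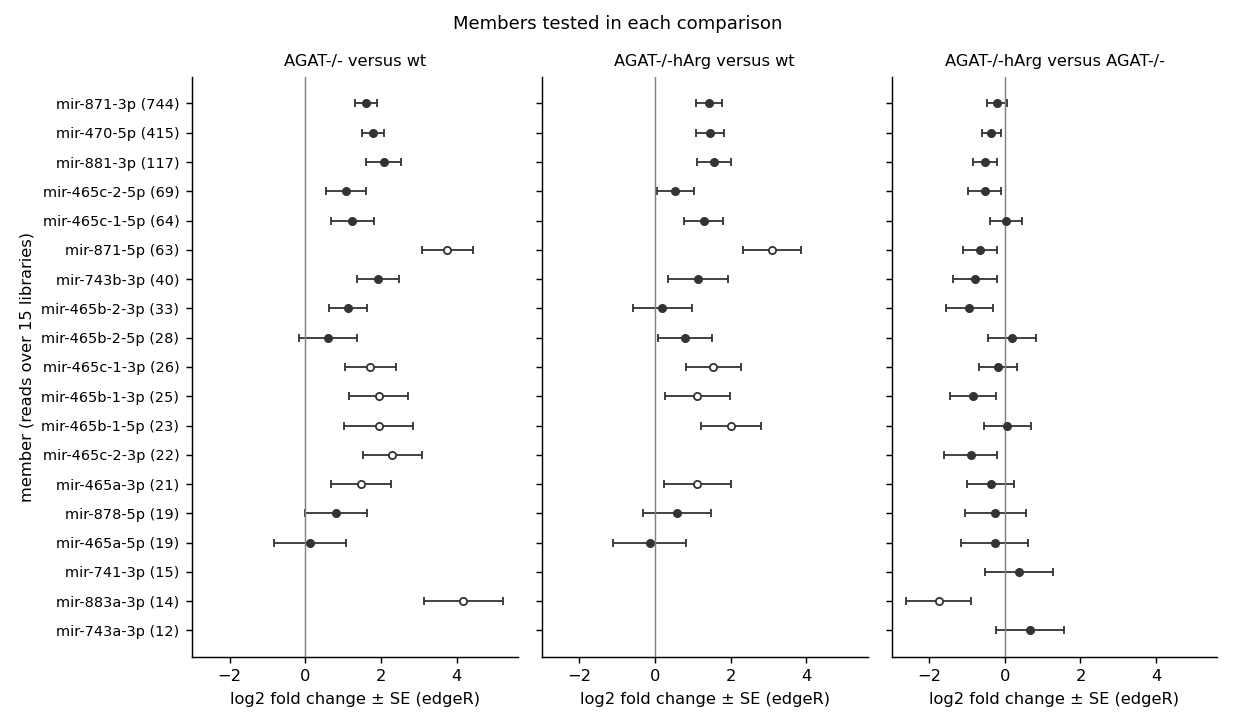
Log2 fold change with its SE (edgeR) of each member tested in the 3 comparisons, with members ordered by their reads over the 15 libraries. Open points have 3 reads or fewer in 1 of the groups, where the fitted value depends on the prior count. All 17 members of the left panel and 14 of 15 in the middle panel lie above 0, and 14 of 19 in the right panel lie below 0.

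The most abundant precursors lay side by side in the middle of the cluster. The neighbours mir-881, mir-871 and mir-470, 25.2, 33.7 and 37.2 kb from the first precursor, gave 117, 807 and 416 reads. The rows of the mir-465 copies at 49.2 to 62.3 kb held between 40 and 91 reads each, apart from mir-465d at 45.9 kb with 3 reads. How the reads of identical strands divide between these copies is not known. The 8 precursors in the first 24.8 kb, from mir-743a to mir-878, gave between 1 and 42 reads each. The dominant arm differed between neighbours, being the 3p arm for mir-871 (92.2% of its reads) and mir-881 (117 of 117 reads), the 5p arm for mir-470, and the 3p arm for mir-743b (40 of 42 reads).

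**Figure D4:**
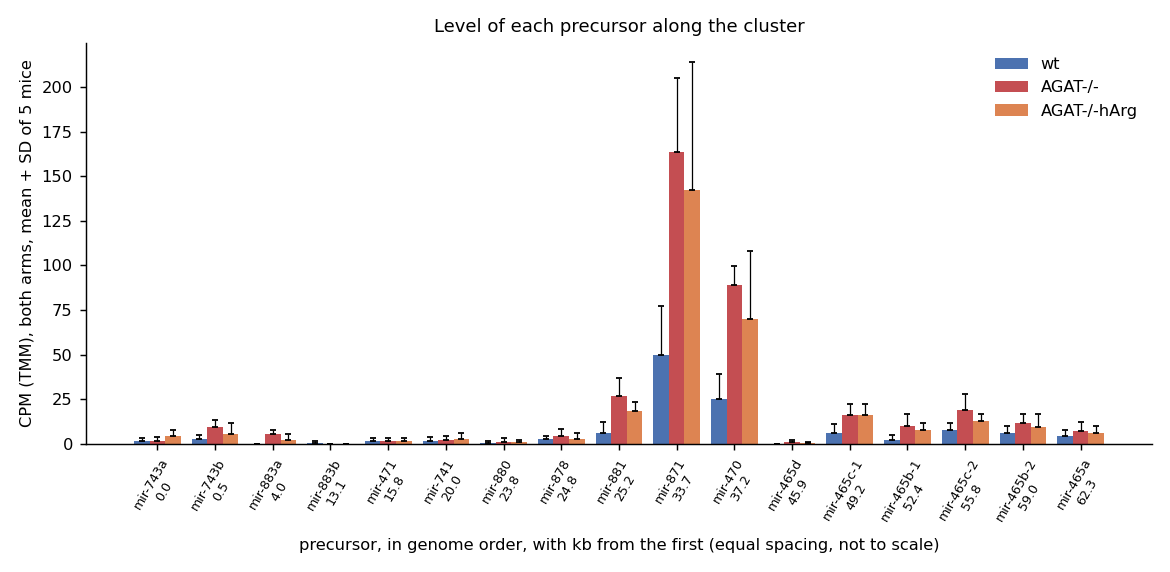
Mean level of each of the 17 precursors, both arms summed, in CPM after TMM normalization, in genome order with the distance in kb from the first precursor under each name (bars equally spaced). Bars are means and lines the SD of 5 mice. mir-871 and mir-470 are the highest in each group, and wt is the lowest group at mir-871, mir-470, mir-881 and each mir-465 precursor. Bars of single mir-465 copies are uncertain, since reads of identical strands cannot be assigned to 1 copy, and mir-465d had 3 reads in all.

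The levels of the members in single mice were also compared within groups. After the group mean of log2 CPM was taken off, mir-470-5p and mir-871-3p correlated over the 15 mice with Pearson's r of 0.65 and Spearman's rho of 0.66. Among mir-470-5p, mir-871-3p, mir-881-3p and the sum of the mir-465 rows, r ranged from 0.34 to 0.65 over the 6 pairs. Scarcer members were less even, and the arms of mir-871 had r of 0.36. For mir-743b-3p, r was 0.16 with mir-881-3p, 0.27 with mir-871-3p, 0.54 with mir-470-5p and 0.62 with mir-871-5p. These correlations are descriptions without p-values, and the points of a mouse share its library and its depth. AGAT-/- mouse 10 was the lowest of its group in all 4, and AGAT-/-hArg mice 14 and 15 were the highest of theirs in all 4. The order differed elsewhere. AGAT-/- mouse 8 was the highest of its group for mir-470-5p but next to the lowest for mir-871-3p and the mir-465 rows. In wt mice the lowest was mouse 5 for mir-470-5p and mouse 3 for the other 3, and the highest was mouse 1 or mouse 4. The summed members and the total reads of a library had r of -0.22 within groups.

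AGAT-/-hArg mice 14 and 15 also carry consecutive animal numbers in the labels, above those of mice 11 to 13 and of all wt mice. The labels do not say what these numbers mean. Mice 14 and 15 stood at 505 and 385 CPM of the summed members, and AGAT-/-hArg mice 11 to 13 at 221, 186 and 224 CPM. AGAT-/- mice 7 to 10 have numbers above those of all wt mice, so number and genotype mostly go together there. AGAT-/- mouse 6 has a number within the range of the wt mice and stood at 415 CPM of the summed members. AGAT-/- mouse 10 has the highest number of all and stood at 264 CPM. The part of the animal number was not tested beyond its use as a covariate.

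**Figure D5:**
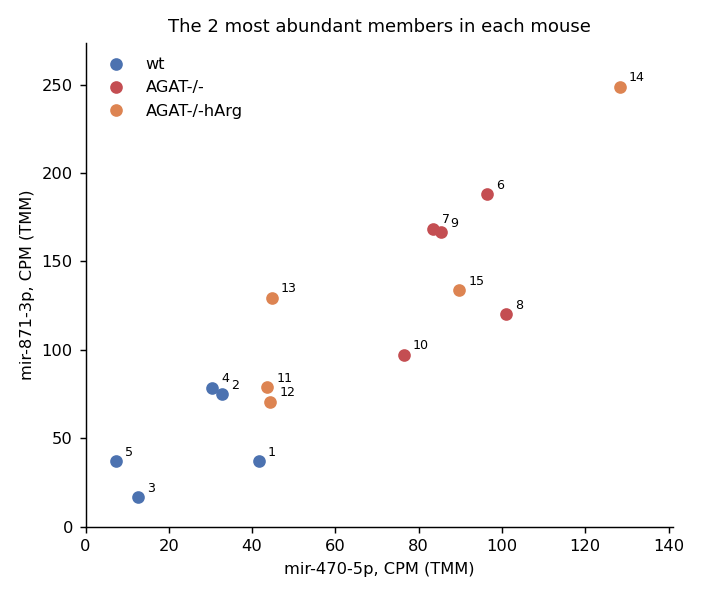
Level of mir-871-3p against that of mir-470-5p in each of the 15 mice, in CPM after TMM normalization, coloured by group and numbered by mouse. The wt mice lie at the lower left, AGAT-/- mice at 76.5 CPM or more of mir-470-5p, and AGAT-/-hArg mice 11 to 13 between 43.7 and 44.7 CPM.

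Other members of the family on the same chromosome were read beside the cluster. mir-463, which lies inside the cluster but has no member name, had 1, 7 and 8 reads on its 5p arm in wt, AGAT-/- and AGAT-/-hArg mice, and its 3p arm was at 0. mir-201 and mir-547 belong to the same X-linked family but lie 1148.971 kb beyond the cluster. mir-201-5p stood at 171 ± 5.02, 202 ± 36.5 and 198 ± 26.2 CPM in wt, AGAT-/- and AGAT-/-hArg mice, and mir-547-3p at 156 ± 27.9, 165 ± 22.6 and 172 ± 23.2 CPM (SD, n = 5). Their log2 fold changes of AGAT-/- against wt mice were 0.23 (SE 0.14) and 0.07 (SE 0.15), and neither passed the FDR in any of the 3 comparisons. Within groups, the summed members had r of -0.11 with mir-201-5p and 0.28 with mir-547-3p. By member, mir-547-3p had r of 0.65 with mir-871-5p and 0.58 with mir-881-3p, as high as between members of the cluster. Its r was 0.22 with mir-470-5p, 0.11 with mir-871-3p and 0.20 with the mir-465 rows. On the scarcer arms, mir-201-3p had 18, 8 and 7 reads and mir-547-5p 5, 12 and 16 reads in the 3 groups. Their log2 fold changes of AGAT-/- against wt mice were -1.19 (SE 0.51) and 1.09 (SE 0.86). Of these relatives, 4, 5 and 4 rows were tested in the 3 comparisons, and none passed the FDR by edgeR or DESeq2. Between AGAT-/-hArg and wt mice, DESeq2 gave an adjusted p to 2 of the 4 rows. mir-201-3p had an unadjusted p under 0.05 in both comparisons with wt mice.

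The other miRNAs of the X chromosome were counted from a list of 39 names, which held 72 rows. Between AGAT-/- and wt mice 33 were tested, with a median log2 fold change of -0.10, and none passed the FDR of edgeR or of DESeq2. At an unadjusted p under 0.05 there were 4. Between AGAT-/-hArg and wt mice 34 were tested, none passed by edgeR and 1 by DESeq2.

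Because the cluster is known from the testis, markers of testis germ cells were read beside it. Of 10 rows, 4 were at 0 and 3 had more than 10 reads, namely mir-34b-5p, mir-34b-3p and mir-34c-3p. Their summed level was 55.7 to 116 CPM in wt, 57.3 to 85.7 in AGAT-/- and 60.3 to 112 in AGAT-/-hArg mice, so the ranges overlapped. None of the 3 rows tested passed the FDR by edgeR or DESeq2 in any comparison, with 1 at an unadjusted p under 0.05 in each comparison with AGAT-/-hArg mice. Between AGAT-/-hArg and wt mice, DESeq2 gave an adjusted p to 2 of these 3 rows. The median log2 fold change of the 3 rows was -0.36 between AGAT-/- and wt mice. It was -0.16 between AGAT-/-hArg and wt mice and 0.19 between AGAT-/-hArg and AGAT-/- mice. mir-34c-5p was among the rows at 0, so it was not tested. The paper lists this strand as lower in AGAT-/- than in wt mice, which could not be checked in these counts. The heart list summed to 1802 to 2115 CPM in wt, 1928 to 2498 in AGAT-/- and 2003 to 2388 in AGAT-/-hArg mice. Of its 16 rows 7 were at 0. mir-499-5p was higher in AGAT-/-hArg than in wt mice (log2 fold change 0.43, edgeR adjusted p = 0.0131), a call that DESeq2 made too. Between AGAT-/- and wt mice, mir-499-5p did not pass by edgeR (log2 fold change 0.36, adjusted p = 0.0639) but passed by DESeq2 (0.39, adjusted p = 0.00957), and every AGAT-/- mouse was above every wt mouse. Its part in the level of the cluster was not tested. In that comparison 2 heart rows had an unadjusted p under 0.05 by edgeR, and between AGAT-/-hArg and AGAT-/- mice none did and DESeq2 called none. The lists for blood and for endothelium and smooth muscle held 10 rows each, of which 5 or 6 were tested in a comparison. None of these passed the FDR of edgeR or DESeq2. Between AGAT-/-hArg and wt mice, DESeq2 gave an adjusted p to 4 rows of the blood list and 2 of the other. At an unadjusted p under 0.05, each list had at most 2 rows in a comparison. Markers of skeletal muscle and neurons were not analysed here.

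The miRNAs outside the cluster whose log2 CPM over the 15 libraries was most like that of the summed members were taken from 227 candidates with a mean of at least 10 reads per library. They were mir-499-5p (Pearson's r 0.83), a heart muscle miRNA made from an intron of Myh7b, mir-125b-2-3p (0.80), mir-339-3p (0.73), mir-9769-3p (0.70) and mir-31-5p (0.68). The likeness rests in part on the group means, since within groups r was 0.53 for mir-499-5p and -0.24 for mir-31-5p. mir-499-5p stood at 752 ± 71.4, 976 ± 79.8 and 1012 ± 77.2 CPM in wt, AGAT-/- and AGAT-/-hArg mice (SD, n = 5). Its group means differed by far smaller folds than those of the cluster, with a log2 fold change of 0.36 (SE 0.10) of AGAT-/- against wt mice.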

How the data were processed

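MiRNA was sequenced from the LV of 15 mice with TruSeq small RNA libraries on an Illumina HiSeq instrument. The deposited values are raw counts of reads on each mature miRNA, which the authors obtained by mapping to mouse miRBase entries in the CLC Genomics Workbench. The miRBase release, the mismatches allowed and the treatment of reads that match several miRNAs are not given in the sources used here. The submitters' processing notes name GRCm38. Groups were taken from the labels, and 0 columns of the table were left out. Within groups, chi-square per degree of freedom was between 2.61 and 17.5 over 30 pairs of libraries, so no library was a repeat of another in its group. Pairs across groups were not compared.

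Members and marker lists were chosen with earlier results of these data known. All member rows with more than 10 reads over the 15 libraries are described, and rows with fewer are counted. miRNAs of similar pattern are the 5 non-members with the highest Pearson's r. Pairs of groups were compared with edgeR 4.0.16 (R 4.3.3; TMM, glmQLFit, glmQLFTest) on miRNAs whose summed reads in the pair exceeded 10, and the fit was tested on simulated data. Recovery of changes there was read only for miRNAs with a mean over 10 reads per library. Most members lie below that level, so the simulation does not show how the fit works for them. The SE of an edgeR log2 fold change was its absolute value divided by the square root of the F statistic of that test. Log2 CPM used a prior count of 1. DESeq2 1.42.0, other size factors, filters and fits, and leaving out each mouse were the alternatives. The labels give each mouse its own number, so mice were not paired. Summaries used Python 3.11.15 with scipy 1.17.1.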

Additional observations from a re-analysis of the deposited data

Results flagged for a closer look

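Of 63 groups of 5 mice looked at, 3 held a mouse far from the others, and chance alone flags about 1 in 20 groups. In wt mice, mir-465b-2-3p reached 6.57 CPM in 1 mouse, with the next at 2.53 CPM. In wt mice, mir-743a-3p stood at 2.19 CPM in 1 mouse, which is 1 read, and at 0 in the other 4. In AGAT-/-hArg mice, mir-883a-3p stood at 5.98 CPM in mouse 15, which is 3 reads, and at 0 in the others. All 3 values rest on 3 reads or fewer in a library.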

How the results depend on the processing

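The differences of the summed members kept their direction and moved by less than the spread between mice under total counts, DESeq2's size factors, the 3 most abundant miRNAs left out, a prior count of 3, mir-470-5p left out and each mouse left out. No member passed the FDR between AGAT-/-hArg and AGAT-/- mice under any alternative. The number of miRNAs called was 12 between AGAT-/- and wt mice and 8 to 18 under the alternatives, and 8 to 17 with each mouse left out. Between AGAT-/-hArg and AGAT-/- mice it was 4, but 8 when 1 read sufficed and 2 when more than 10 reads were asked of every library (3 to 6 with each mouse left out). Between AGAT-/-hArg and wt mice it was 17, with 9 higher and 8 lower, but 28 when 1 read sufficed, 24 (16 higher and 8 lower) with total counts, 10 (1 higher and 9 lower) with the animal number as a covariate, and 10 to 20 with each mouse left out (11 without wt mouse 5, 10 without AGAT-/-hArg mouse 15). The cause was not tested. The filter of more than 10 reads in every library removed most members, and DESeq2 gave no adjusted p to many of them. It gave one to mir-871-3p and mir-470-5p of the 15 members between AGAT-/-hArg and wt mice, and both passed.

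Members of low count changed sign, none of them past the FDR. With the animal number as a covariate, the log2 fold changes between AGAT-/- and wt mice were -1.004 for mir-465a-5p and -0.67 for mir-465b-2-5p, in place of 0.12 and 0.60, and mir-465a-5p ranged from -0.19 to 0.46 with each mouse left out. With that covariate, the log2 fold changes between AGAT-/-hArg and AGAT-/- mice were 0.35 for mir-465a-5p, -0.23 for mir-465b-1-5p and -0.055 for mir-465c-1-5p, and between AGAT-/-hArg and wt mice -0.78 for mir-465b-2-3p and -0.30 for mir-465b-2-5p. With each mouse left out, the comparison of AGAT-/-hArg with AGAT-/- mice ranged from -0.59 to 0.091 for mir-465a-5p, from -0.25 to 0.47 for mir-465b-1-5p, from -0.25 to 0.55 for mir-465b-2-5p, from -0.25 to 0.18 for mir-465c-1-5p and from -1.04 to 0.29 for mir-878-5p. That of AGAT-/-hArg with wt mice ranged from -0.44 to 0.24 for mir-465a-5p and from -0.35 to 0.64 for mir-465b-2-3p.

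No paired analysis was possible because the groups share no mouse number. Depth limits the members most, since 15 of 34 rows had 10 or fewer reads in all.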
